A study of Bos taurus with 20 samples.

Results

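The 31 genes described here build cholesterol and fatty acids or switch that synthesis on and off, and they were followed in the endometrium, the lining of the uterus, of 10 cows. They are a given list of names and were found as the probes that carry a member's name in the array design. Such probes numbered 77 of the 43653 measured, with 17 genes of sterol synthesis, 4 regulators and 10 genes of fatty acid synthesis and modification. Each cow was biopsied early after calving, from 42 to 86 days, and again late, from 343 to 436 days. Per the design text, both biopsies were taken 7 days after oestrus from the uterine horn beside the corpus luteum, with no treatment named. There are 10 early and 10 late samples, 1 array each, and cows are numbered 1 to 10 here. A cow was always older in its late sample, so age and the interval after calving cannot be told apart.

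Cholesterol is built from acetyl-CoA through mevalonate, isoprenoid diphosphates, squalene and lanosterol. Fatty acids are built from the same acetyl-CoA, which is carboxylated to malonyl-CoA and then polymerised to palmitate, which elongases and desaturases modify. Both branches are switched on by the SREBP transcription factors, which SCAP escorts out of the endoplasmic reticulum when sterols are low and INSIG proteins hold back when sterols are high. In ruminants acetate, rather than glucose, is a main carbon source for fatty acids. The uterine lining needs both products for its cell membranes, and its glands secrete lipid among the nutrients of an early embryo.

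Values are log2 signals relative to the array's 75th percentile, so a difference of 1 is a doubling, and a level says nothing about another gene, since probes differ in brightness. Between 71.8% and 80.2% of spots on an array were well above background and 0 were saturated. Late and early samples are compared within cows, so it is the count of cows, 10, that sets the precision. Over all genes the early samples of cows 4 and 9 and the late sample of cow 9 lay farthest from the median of their period. Their median absolute deviations were 0.44, 0.30 and 0.28, against 0.10 to 0.22 for the other 17 samples. Only slide 3 of the 5 slides mixed the periods, with early samples from cows 9 and 10 beside late samples from cows 1 and 2. Another 2 slides carried early samples alone and 2 carried late samples alone, so most of the slide effect cannot be told apart from the period. With slide as a further block beside cow, the period change rests only on the mean changes of 5 combinations of early and late slide. Each holds 2 cows, so such values are far less precise than the main ones, and their standard errors are not given here. Markers of the labelled tissue were present, with the epithelial gene EPCAM at 4.13 ± 0.67 early and 4.50 ± 0.33 late and the stromal gene VIM at 6.22 ± 0.24 and 5.90 ± 0.26 (SD, n = 10 each). Of 4 fat cell genes, ADIPOQ and LEP did not pass the filter on dim probes, while PLIN1, at -4.27 ± 0.34 early and -4.47 ± 0.51 late, and FABP4, at -6.08 ± 0.92 and -5.79 ± 0.75, did and were tested.

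The comparison of late with early samples within cows asked whether the synthesis genes had other levels about a year after calving. All 31 members passed the filter, and 0 of 31 passed an adjusted p of 0.05 in limma, a share to be read against 1.31% of 19445 genes. At an unadjusted p under 0.05 there were 5 members, beside 22.6% of all genes. These were ACACA and SREBF2, with lower late means, and HSD17B7, ELOVL5 and ELOVL6, with higher ones. The change was above 0 for 13 members, against 52.9% of all genes. The median change was -0.02 for the members and 0.02 for all genes. Early and late levels overlapped for every one of the 31 members. The share over all genes was not computed, so this overlap says nothing particular about the members. These are bulk samples, in which fewer cells of a type and less RNA per cell cannot be told apart.

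**Figure D1:**
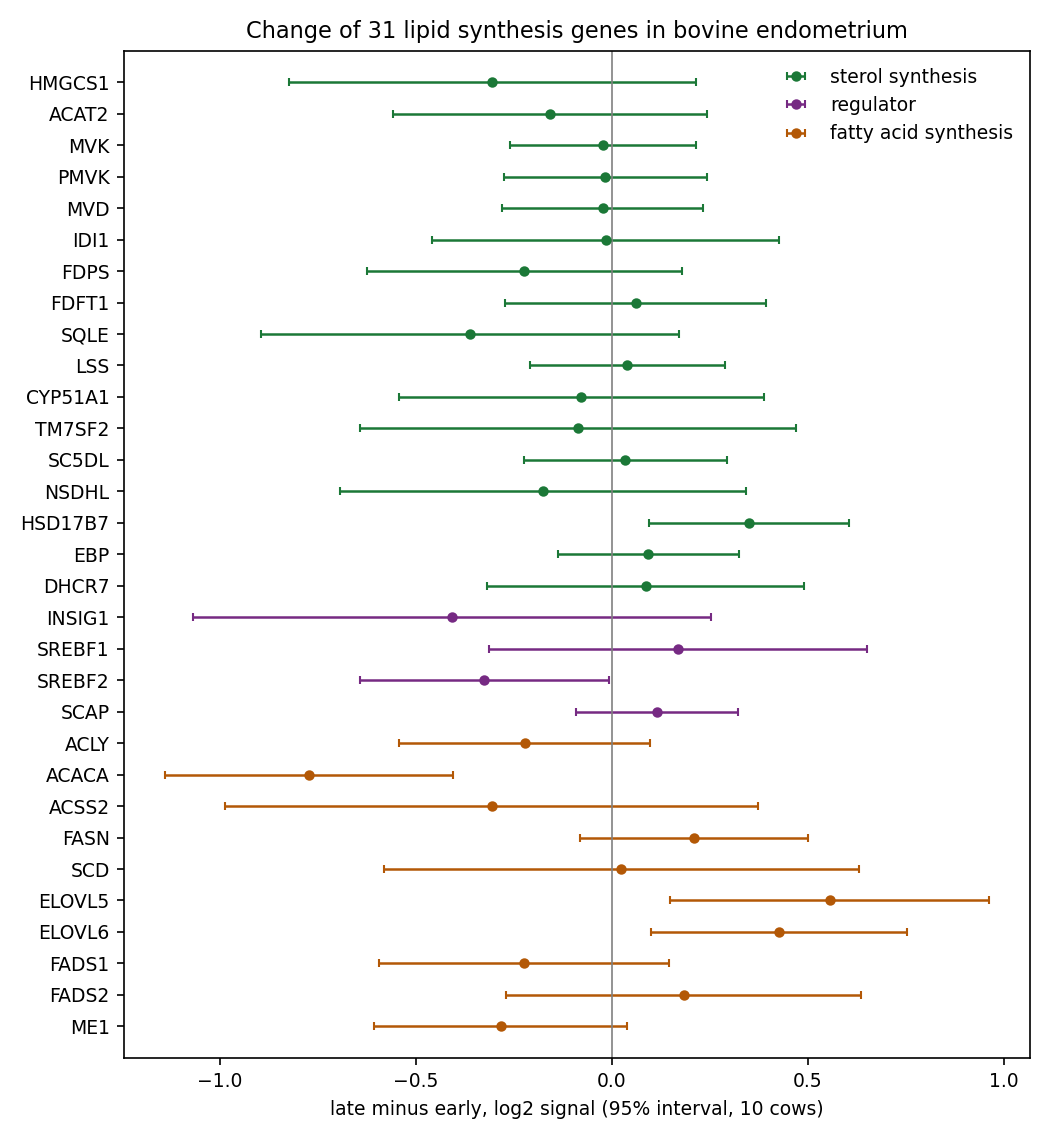
Late minus early log2 signal of the 31 genes (points) with the 95% interval of the limma fit over 10 cows (bars), coloured by branch. The interval lies wholly below 0 for ACACA and SREBF2 and wholly above 0 for HSD17B7, ELOVL5 and ELOVL6, without adjustment for the number of genes tested.

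ACACA encodes acetyl-CoA carboxylase alpha, which makes malonyl-CoA, the rate-limiting step of fatty acid synthesis. Its early level ran from -4.86 through a median of -3.35 to -2.89, and its late level from -5.40 through -4.08 to -3.54. The late sample was the lower one in 10 of 10 cows, a pattern that 1.7% of genes measured in all samples shared, while the ranges of the periods overlapped. The change was -0.77 ± 0.17 (SE), a level 1.71-fold lower late (95% interval 1.32 to 2.20), with a limma adjusted p of 0.0512, just outside the threshold. Cow 9 had the largest difference at -2.04 and cow 5 the smallest at -0.20. The probes are shown because the value rests on a single bright one. The main probe maps to chr19:12873519-12875405 on the minus strand of the HGSC Btau_3.1 build, and 2 dimmer probes lie at chr19:13034288-13034347 and chr19:13084934-13084993 on the same strand. The span of the main probe is longer than its 60 bases, so it is mapped in more than 1 block. The first 30 bases of each, in the order just given, with no base marked, are:
ACACA main probe: aagtacatcagcagagactacgtcctcaag
ACACA dimmer probe: ttgctgattctcagtttggtcactgctttt
ACACA dimmest probe: ttcattattggctccgtgtctgaagataac

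The dimmer probe, which passed background on 6 early and 2 late arrays, was at -0.75 ± 0.29 (SE, limma adjusted p = 0.15 over all probes). The dimmest probe was well above background on 1 array and entered no test. ACACA passed the threshold under 4 alternatives: with cow as a random block (adjusted p = 0.0489), with normexp background correction (0.0470), with quantile normalization (0.0322) and with scaling to the median of detected probes (0.0459). It did not pass under the others run: its adjusted p was 0.127 without the pairing, 0.0819 with slide as a random block, 1 with slide as a fixed block, 0.535 within slide 3 and 0.0514 to 0.102 on leaving out a cow. With the deposited table, with each probe as a feature, with a gene's probes averaged, without the filter and without cows 4 and 9 it lay between 0.0514 and 0.0882. Its change was -0.47 with normexp correction, -0.79 with slide as a further block and -1.63 within slide 3.

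ACLY and ACSS2, which supply acetyl-CoA, and ME1, which supplies NADPH, had lower late means, none past the threshold. ACLY, which cuts citrate into cytosolic acetyl-CoA, was at 2.25, 2.53 and 3.25 early (lowest, median and highest) and at 1.94, 2.28 and 2.88 late. Its change was -0.22 ± 0.15 (SE, limma adjusted p = 0.381), negative in 8 of 10 cows. ACSS2, which activates acetate, had a change of -0.31 ± 0.31 (adjusted p = 0.574) and was lower late in 9 of 10 cows. The exception was cow 9, whose ACSS2 level went from -1.15, the lowest early value, to 0.87, the highest late value. In cow 6 it went the other way, from 1.05, the highest early value, to -1.39, the lowest late value. ME1, the malic enzyme that yields NADPH for synthesis, was at -0.28 ± 0.15 (adjusted p = 0.275). Its early level in cow 4, 0.13, stood above the other 9, which lay at -0.84 or lower. Cow 4 had a ME1 change of -1.60, against values from -0.30 to 0.17 in the other cows.

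FASN, the synthase that builds palmitate from the malonyl-CoA that ACACA supplies, had a late mean above its early mean. It was at 3.15, 3.72 and 4.16 early and at 3.55, 3.91 and 4.50 late (lowest, median and highest). The change was 0.21 ± 0.13 (SE, limma adjusted p = 0.365), positive in 6 of 10 cows. It was 1.15 with slide as a further block and 0.64 within slide 3. The 5 FASN probes did not share a sign. The main probe at chr19:52189948-52190007, on the plus strand of the same build, and 3 others had changes from 0.21 to 0.33. The probe at chr19:52184127-52184304 had -0.16 ± 0.14 (adjusted p = 0.506). The first 30 bases of both show which parts of the transcript were read, with no base marked:
FASN main probe: atttttcacgaacctggtaaagatgttgtc
FASN opposite probe: atcttcctgcctgtggaggacaccagcttc

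Both elongases had higher late means. ELOVL5, which lengthens polyunsaturated fatty acids, was at 2.16, 3.13 and 3.53 early and at 3.09, 3.57 and 4.16 late. Its change was 0.55 ± 0.19 (SE, limma adjusted p = 0.124), a level 1.47-fold higher (95% interval 1.11 to 1.95), positive in 9 of 10 cows and 0.49 by its other probe. The 3 cows with the lowest early ELOVL5 levels, cows 10, 9 and 4, had the largest differences, 1.47, 1.01 and 1.74. The early level is part of the difference, so this match is not a separate result. Without cows 4 and 9 the ELOVL5 change was 0.35. ELOVL6, which lengthens palmitate to stearate, was at -0.06, 0.59 and 1.30 early and at 0.61, 1.03 and 1.63 late. Its change was 0.43 ± 0.15 (SE, adjusted p = 0.136), positive in 9 of 10 cows, and its 5 probes gave 0.11 to 0.51. With slide as a further block the change was 0.13 for ELOVL5 and 0.83 for ELOVL6, and within slide 3 it was 1.33 and 0.61.

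With cow as the only block, desaturases showed little difference between periods and a wide spread between cows. SCD, which makes oleate from stearate, had a change of 0.02 ± 0.28 (SE, limma adjusted p = 0.968), made up of cow values from -1.37 in cow 4 to 1.89 in cow 10. Its 7 probes gave changes from -0.20 to 0.05. The SCD change was 1.73 with slide as a further block and 0.83 within slide 3, so it depended strongly on how slide was treated. FADS2, the delta-6 desaturase of polyunsaturated fatty acids, was at 0.18 ± 0.21 (adjusted p = 0.616), with 1.92 in cow 9 and values from -0.56 to 0.53 in the other 9 cows. FADS1, its partner later in that route, passed background on 9 early and 8 late arrays and was at -0.22 ± 0.17 (adjusted p = 0.442). Of the 10 genes of this branch, 5 had positive and 5 negative changes, with a median of -0.10. That median was 0.58 with slide as a further block and 0.26 within slide 3.

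**Figure D2:**
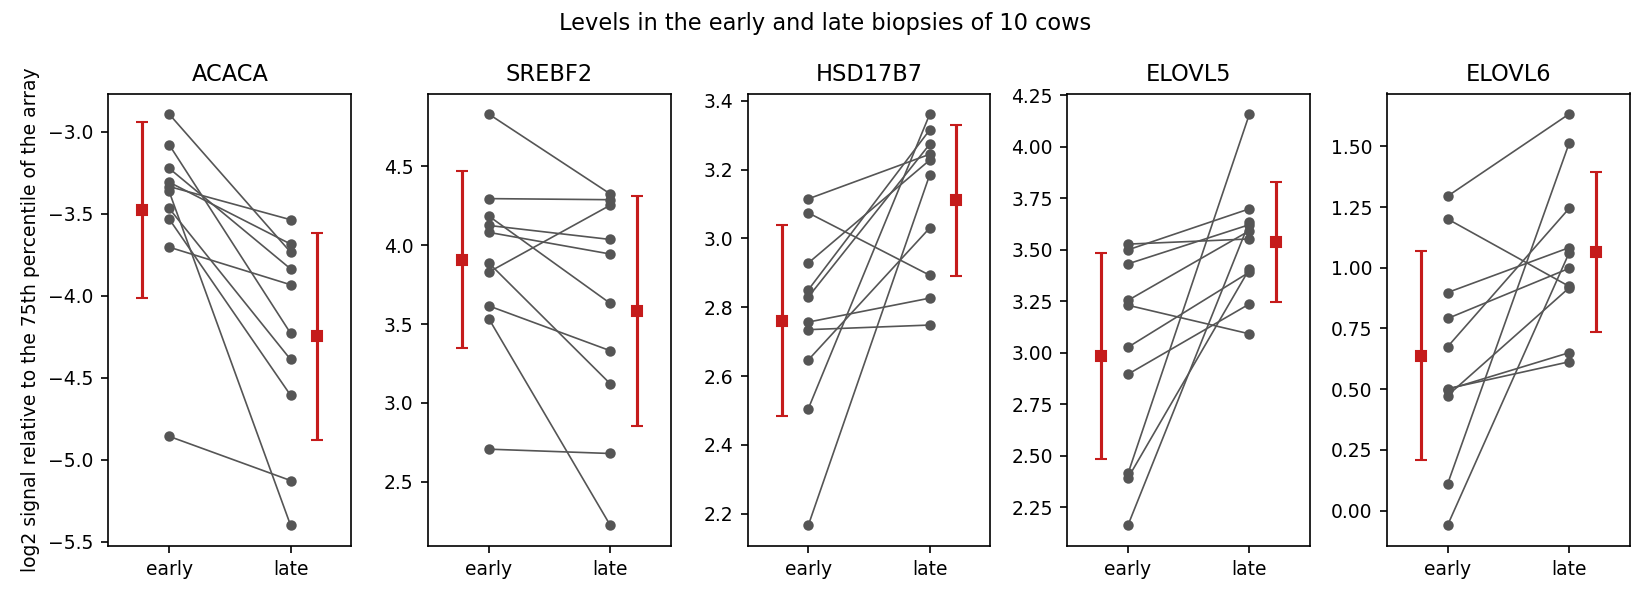
Log2 signal relative to the array's 75th percentile in the early and late sample of each of 10 cows (grey points joined by a line), with the mean and SD of each period (red squares and bars), for the 5 members with an unadjusted p under 0.05. Every ACACA line slopes down, while 1 of 10 lines runs against the others for SREBF2, HSD17B7, ELOVL5 and ELOVL6.

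The sterol branch had a median change of -0.02, with 6 positive and 11 negative values, and the median turned to 0.13 with slide as a further block. The most negative changes were those of HMGCS1 and SQLE. HMGCS1, which makes HMG-CoA, was at 0.96, 1.65 and 3.55 early and at 0.98, 1.40 and 1.99 late (lowest, median and highest). The change was -0.31 ± 0.24 (SE, limma adjusted p = 0.458), negative in 7 of 10 cows. SQLE, the squalene epoxidase and a rate-limiting step of the pathway, was at 1.54, 2.51 and 4.13 early and at 1.79, 2.20 and 2.67 late. Its change was -0.36 ± 0.24 (adjusted p = 0.389), negative in 8 of 10 cows. For both genes the highest early value was that of cow 4 and the lowest that of cow 9, and the early range was wider than the late one. With slide as a further block both changed sign, to 0.43 for HMGCS1 and 0.27 for SQLE.

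Of the remaining enzymes up to farnesyl diphosphate, ACAT2, the thiolase that starts the route, was at -0.16 ± 0.18 (SE, limma adjusted p = 0.628). Without cow 4 it was at 0.02. FDPS, the farnesyl diphosphate synthase, was at -0.22 ± 0.18 (adjusted p = 0.483) and lower late in 8 of 10 cows. The mevalonate kinase MVK, the phosphomevalonate kinase PMVK, the decarboxylase MVD and the isomerase IDI1 each had a change of -0.02, closer to 0 than their standard errors of 0.11 to 0.20. IDI1 ran from -0.76 in cow 6 to 1.74 in cow 9, so a mean near 0 hid large differences of opposite sign.

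Apart from SQLE and HSD17B7, the enzymes that make squalene and turn it into cholesterol were closer to 0 than their standard errors. The squalene synthase FDFT1 was at 0.06 ± 0.15, the lanosterol synthase LSS at 0.04 ± 0.11 and the lanosterol demethylase CYP51A1 at -0.08 ± 0.21 (SE). The sterol reductase TM7SF2 was at -0.09 ± 0.25, the desaturase SC5DL (now SC5D) at 0.03 ± 0.12, the demethylation enzyme NSDHL at -0.18 ± 0.24, the isomerase EBP at 0.09 ± 0.11 and the reductase DHCR7, which makes cholesterol itself, at 0.09 ± 0.18. Limma adjusted p-values of these 8 genes lay between 0.620 and 0.884. TM7SF2 was higher late in 7 of 10 cows, and its negative mean came with changes of -2.12 in cow 6 and -1.17 in cow 3.

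HSD17B7, a reductase of the demethylation step that also converts estrone to estradiol, had a higher late mean. It was at 2.17, 2.79 and 3.12 early and at 2.75, 3.21 and 3.36 late. Its change was 0.35 ± 0.12 (SE, limma adjusted p = 0.124), a level 1.27-fold higher (95% interval 1.07 to 1.52), positive in 9 of 10 cows and 0.32 by its other probe. With slide as a further block the sign turned to -0.23, and within slide 3 the change was 0.49.

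Among the regulators, SREBF2, the factor that mainly drives sterol genes, and INSIG1, a sterol-dependent brake and itself an SREBP target, had lower late means. SREBF2 was at 2.71, 3.99 and 4.83 early and at 2.23, 3.79 and 4.33 late. Its change was -0.33 ± 0.14 (SE, limma adjusted p = 0.212), a level 1.25-fold lower (95% interval 1.01 to 1.56), negative in 9 of 10 cows. It was -0.18 without cows 4 and 9, and -0.06 with slide as a further block. Its 4 probes, on the plus strand of chromosome 5, gave different answers, so the start of each is shown with its change in the sentence that follows, with no base marked:
SREBF2 main probe, chr5:120041454-120041513: tgcccacatcagccgccgcctccctccatt
SREBF2 probe, chr5:120015413-120015472: acaatgacgtggacttgaagatcgatgact
SREBF2 probe, chr5:120033265-120033324: ttctccagcgctcttgagtacctgaaatta
SREBF2 probe, chr5:120042349-120042408: gggggcaggcttggggatgggtgaaatcgt
In that order the changes were -0.33, -0.26, -0.17 and 0.10, none past the threshold. The main probe and the probe with the opposite sign are neighbours in position.

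INSIG1 was at -0.13, 0.86 and 2.30 early and at -0.43, 0.28 and 1.46 late. Its change was -0.41 ± 0.30 (SE, limma adjusted p = 0.434), from -2.31 in cow 4 to 1.59 in cow 9. SREBF1, the factor that mainly drives fatty acid genes, was at 0.17 ± 0.22 (adjusted p = 0.671), with the largest difference, 1.66, in cow 10. SCAP, the escort of both factors, was at 0.11 ± 0.10 (adjusted p = 0.486). Across the 31 genes, 44 further probes passed the filter, and 31 of them had the sign of the gene's main probe. The 13 with the opposite sign belonged to 9 genes: ACAT2, EBP, FADS1, FASN, FDFT1, LSS, SCAP, SCD and SREBF2.

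Values by animal differed more than the averages show. In some cows most sterol genes shared a sign, which differed between those cows, and in others the split was near even. Cow 9 had 15 of 17 sterol genes higher late, where 46.5% of all its genes were higher, with a median sterol change of 0.98. Cow 7 had 16 of 17 higher (52% of all genes), with a small median of 0.18. Cows 5 and 6 had 3 of 17 higher each, against 54.9% and 56.7% of all genes, with medians of -0.20 and -0.64. Cow 4 had 5 of 17 higher (52.4% of all genes) and a median of -0.48. In the other 5 cows the medians lay between -0.09 and 0.12. Higher late there were 9 of 17 in cows 1 and 10 (55.1% and 51.1% of all genes), 7 in cow 8 (53.8%), 6 in cow 3 (49.1%) and 5 in cow 2 (52.2%). Genes of 1 sample share that sample, so these counts are a description of each cow and not replicates.

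**Figure D3:**
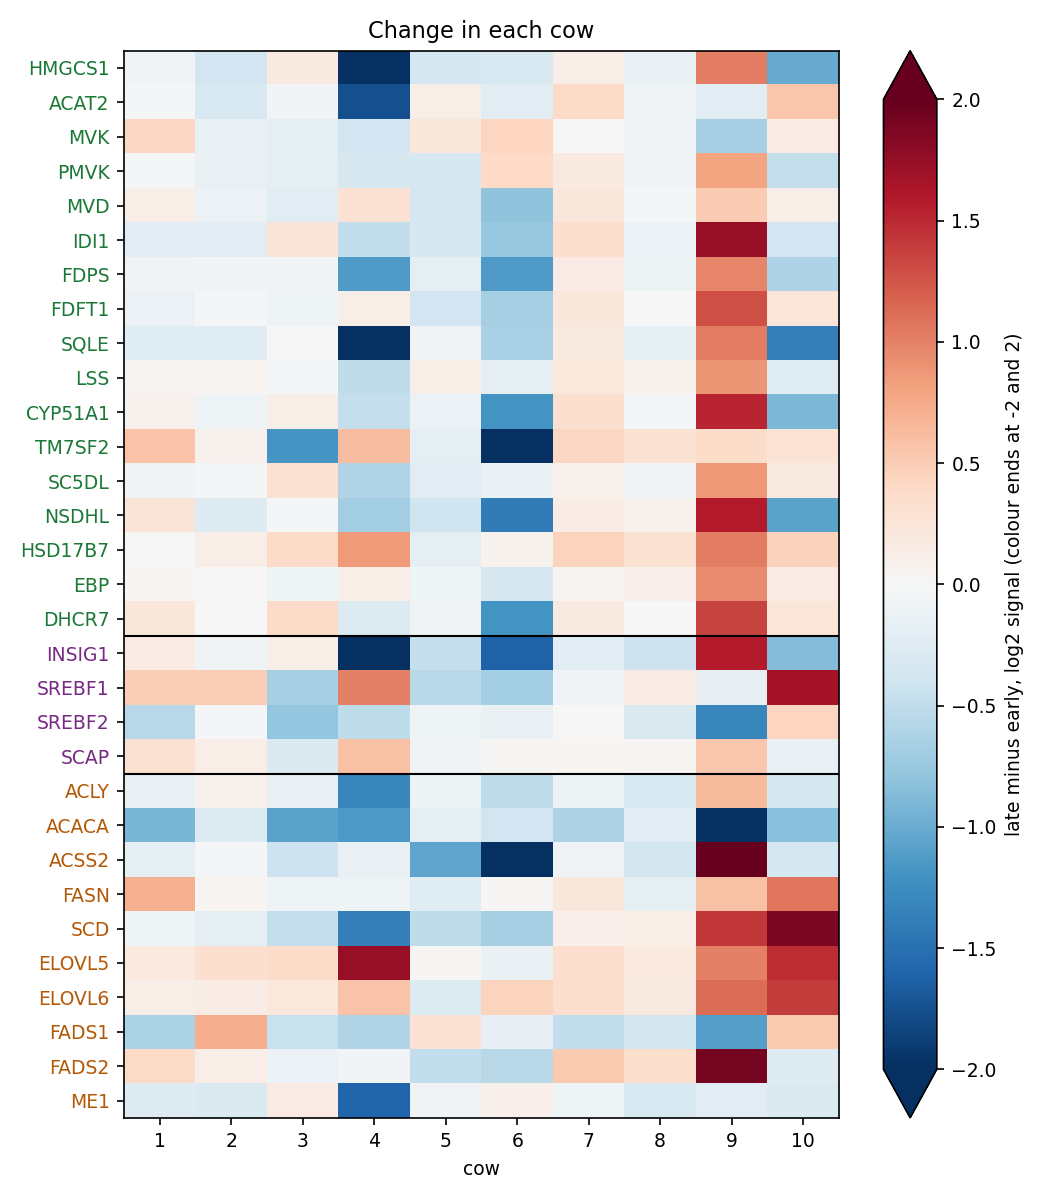
Late minus early log2 signal of each gene (rows) in each of 10 cows (columns), red for higher and blue for lower late, with the colour ending at -2 and 2. Rows 1 to 17 are sterol genes, the block between the lines is the 4 regulators and the lowest block the fatty acid genes. Cow 9 is red and cow 6 blue over most of the sterol block.

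The extremes lay in a few samples. The early sample of cow 9 was the lowest of the 10 early samples for 15 of 17 sterol genes, and for 13.2% of all genes. The exceptions were ACAT2 and MVK, and MVK was at its highest there, at 3.22. The late sample of the same cow was the highest late one for 10 of 17 sterol genes, against 19.1% of all genes. For IDI1 it went from 0.51, the lowest early level, to 2.25, the highest late level, and for CYP51A1 from 1.34 to 2.85. The late sample of cow 6 was the lowest late one for 8 of 17 sterol genes, against 15.1% of all genes, and that of cow 1 for 7 of 17, against 8.48%. The early sample of cow 4 was the highest early one for 7 of 17, against 26% of all genes. In that sample HMGCS1 reached 3.55, where the next highest early value was 2.32, and SQLE reached 4.13. The median SD of the change over cows was 0.62 for the sterol genes and 0.41 for all genes. Without cows 4 and 9 it was 0.33 and 0.30.

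Changes of the cell type markers are given beside the sterol values of the same cows. In cow 9 all 8 epithelial markers were higher late, with a median change of 1.52, and all 8 stromal markers were lower, with a median of -0.89. In cow 4 the epithelial median was 0.28, the stromal median -0.89 and the macrophage median -2.0, while the sterol median was -0.48. In cow 6 the epithelial median was -0.05, with 4 of 8 higher, and the stromal median 0.20, while the sterol median was -0.64. Epithelial medians of -0.39 in cow 3, 0.39 in cow 8 and 0.35 in cow 10 stood beside sterol medians of -0.03, -0.03 and 0.12. In cows 1, 2, 5 and 7 the epithelial medians were 0.09, 0.14, -0.30 and 0.24, beside sterol medians of 0.01, -0.09, -0.20 and 0.18. The mean level of the epithelial markers ran from 0.59 to 2.31 over the early samples and from 1.67 to 2.55 over the late ones. The mean level of the stromal markers ran from 3.84 to 4.58 early and from 3.51 to 4.19 late. The part of the epithelial and stromal markers in the sterol values was not tested.

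**Figure D4:**
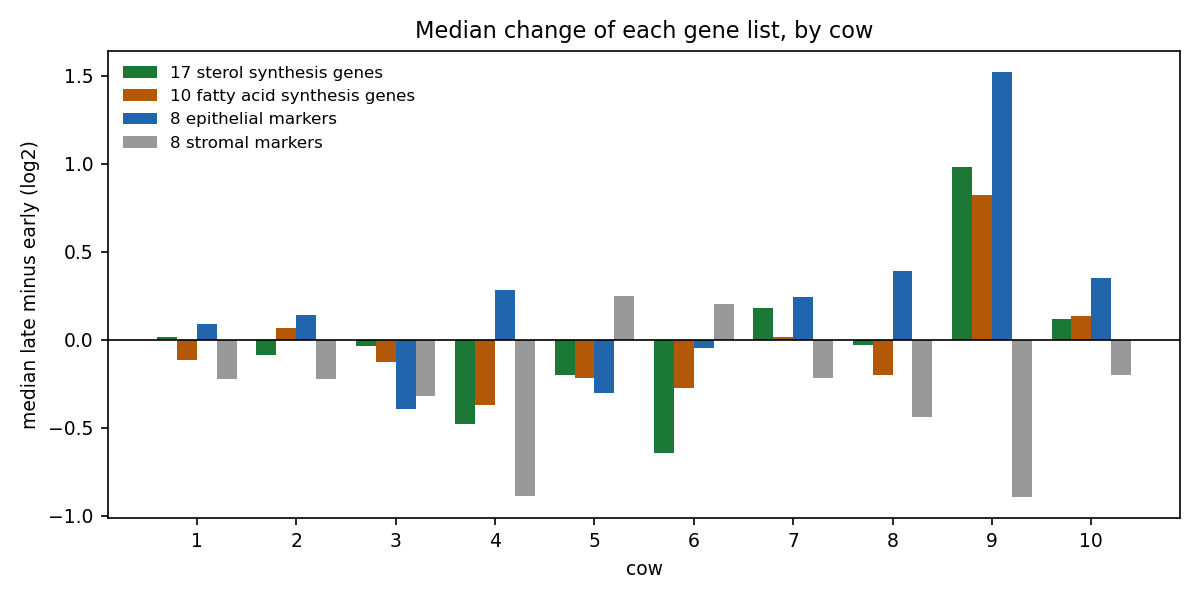
Median late minus early log2 change (bars) of the 17 sterol synthesis genes, the 10 fatty acid synthesis genes, 8 epithelial markers and 8 stromal markers in each of 10 cows. In cow 9 the sterol, fatty acid and epithelial medians are 0.98, 0.82 and 1.52 and the stromal one is -0.89, while in cow 6 the sterol median is -0.64 and the epithelial one is -0.05.

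How closely members followed each other over the 10 cows was measured on the late minus early change for 11 pairs. Pearson's r and Spearman's rho were each given a two-sided permutation p and a Benjamini-Hochberg adjustment over the pairs. HMGCS1 and SQLE were almost collinear, with r = 0.97 (permutation p = 0.00018, adjusted 0.00198) and rho = 0.83 (p = 0.00486, adjusted 0.0178). Neither gene has a further probe under its name, so no other probe could check its values. Without cows 4 and 9, the farthest from the HMGCS1 median, r was 0.89 over 8 cows. Of the 19236 other genes, SQLE included, 0.0156% had an r with HMGCS1 at least as high. That share was 1.1% for INSIG1, 6.55% for IDI1 and 7.55% for CYP51A1, whose relations to HMGCS1 follow. IDI1 followed HMGCS1 with r = 0.72 (permutation p = 0.0109, adjusted 0.0399) and rho = 0.84 (p = 0.00378, adjusted 0.0178), and r was 0.64 without those 2 cows. CYP51A1 had r = 0.69 (permutation p = 0.0261, adjusted 0.0574) and rho = 0.84 (p = 0.00346, adjusted 0.0178), with r = 0.70 without them. INSIG1 had r = 0.88 (permutation p = 0.00284, adjusted 0.0156) and rho = 0.78 (p = 0.0103, adjusted 0.0284), but r was 0.50 without the 2 cows, so the relation rests in part on them.

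Other pairs did not pass. FDFT1 had r = 0.36 with HMGCS1 (permutation p = 0.264, adjusted 0.322; rho = 0.09, p = 0.805, adjusted 0.842) and -0.098 without cows 4 and 9. SREBF2 had r = -0.47 (permutation p = 0.145, adjusted 0.228; rho = -0.55, p = 0.105, adjusted 0.192) and -0.79 without the 2 cows, a sign opposite to that of the sterol enzymes. FASN had r = 0.11 with HMGCS1 (permutation p = 0.800, adjusted 0.800; rho = 0.08, p = 0.842, adjusted 0.842) and -0.54 without them. Within the fatty acid branch, FASN and SCD had r = 0.79 (permutation p = 0.0188, adjusted 0.0516) and rho = 0.58 (p = 0.0915, adjusted 0.192). Without cows 1 and 10, the farthest from the FASN median, r was 0.76, and 0.218% of all genes had an r with FASN at least as high as that of SCD (3.42% for SREBF1 and 19.5% for ACLY). FASN with SREBF1 had r = 0.59 (permutation p = 0.0969, adjusted 0.178; rho = 0.49, p = 0.157, adjusted 0.246), which was 0.0030 without cows 1 and 10. FASN with ACACA had r = -0.46 (permutation p = 0.231, adjusted 0.317; rho = -0.47, p = 0.179, adjusted 0.246) and -0.72 without them. FASN with ACLY had r = 0.29 (permutation p = 0.397, adjusted 0.437; rho = 0.12, p = 0.759, adjusted 0.842) and 0.59 without them. The pairs share samples and arrays. Each of the 5 combinations of early and late slide held 2 cows. With the changes centred within those combinations, an alternative added after seeing the data, r with HMGCS1 was 0.97 for SQLE, 0.94 for INSIG1, 0.85 for IDI1, 0.76 for CYP51A1, 0.49 for FDFT1 and -0.74 for SREBF2, and it turned to -0.23 for FASN. With FASN it was 0.26 for SCD, 0.33 for SREBF1 and -0.047 for ACACA, and it turned to -0.43 for ACLY. These values carry no test, since swapping cows within 5 combinations gives no two-sided p below 0.0625.

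**Figure D5:**
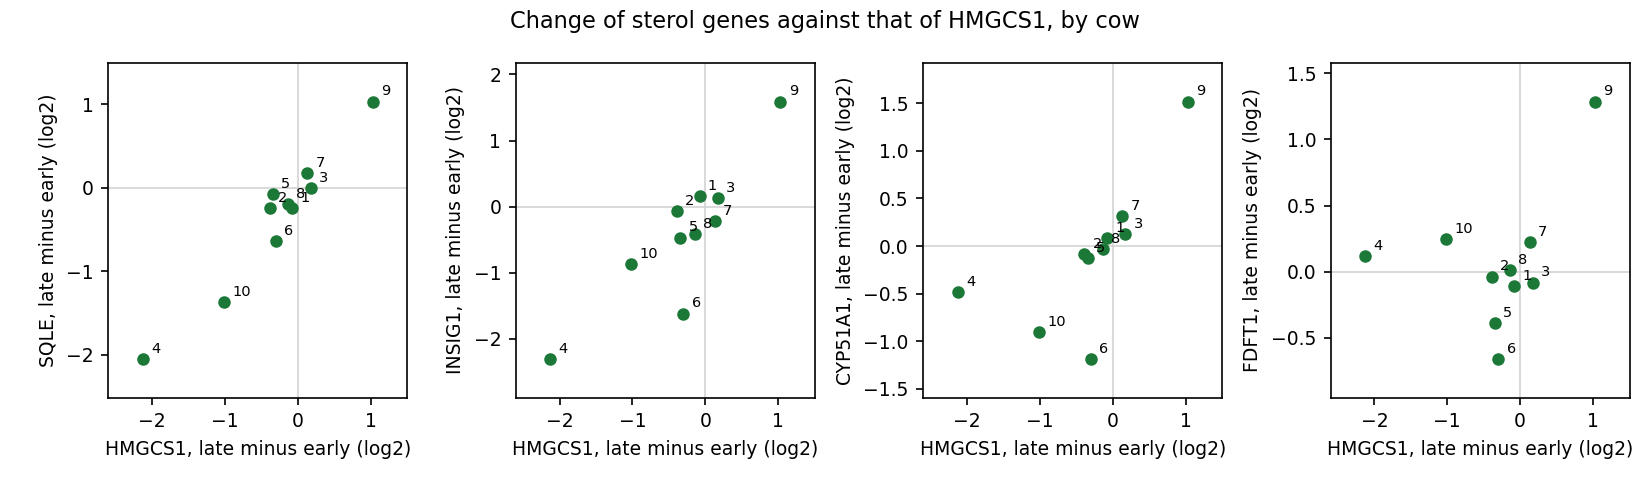
Late minus early log2 change of SQLE, INSIG1, CYP51A1 and FDFT1 against that of HMGCS1, with 1 point per cow and its number beside it. SQLE lies close to a line through all cows (r = 0.97), and FDFT1 does not (r = 0.36), with cows 4 and 9 at the ends of the HMGCS1 axis.

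Genes around the pathway gave the called differences. Of 21 genes tested from a list of 24 that take up, move, store or sense sterols, 2 passed, both lower late, against 0.777% of all genes lower and 0.535% higher. The list's median change was -0.03, with 6 positive and 15 negative values. ABCA1, which exports cholesterol to lipoproteins, fell from -3.94 ± 0.47 to -4.64 ± 0.32 (SD, n = 10), a change of -0.71 ± 0.13 (SE, limma adjusted p = 0.0329) seen in 10 of 10 cows. APOE, the lipoprotein component through which macrophages also release cholesterol, fell from 5.78 ± 0.48 to 4.85 ± 0.35, a change of -0.93 ± 0.20 (SE, limma adjusted p = 0.0464), again in 10 of 10 cows. Removing 1 cow ended the ABCA1 call for 7 cows (1, 3, 6, 7, 8, 9 and 10; adjusted p up to 0.0748) and the APOE call for all 10 (adjusted p from 0.0515 to 0.0969). With normexp correction ABCA1 was at -0.41 (adjusted p = 0.0545), and without the pairing its adjusted p was 0.0604. A random slide block left both outside the threshold (adjusted p = 0.0629 and 0.0819), and APOE did not pass without the filter (0.0665). Under a fixed slide block both calls were lost and the changes were -0.14 and -0.016. Within slide 3 the changes were -0.16 and -1.25.

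Macrophage markers moved in the same direction as ABCA1 and APOE. Of 6 macrophage markers, 5 had negative changes, with a median of -0.78, and 2 passed lower, CD68 at -1.79 (limma adjusted p = 0.00553) and MSR1 at -0.85 (adjusted p = 0.0181), both lower in 10 of 10 cows. Their mean level ran from -1.61 to 0.23 over the early samples and from -2.22 to -0.31 over the late ones. Of 6 lymphocyte markers, 5 had negative changes and 1 a positive one of 0.23, with a median of -0.32. Only NKG7 passed, at -1.20 (limma adjusted p = 0.0262). The NKG7 call was lost without cow 1, 6, 8 or 10 (adjusted p up to 0.0698) and with slide as a random block (0.0520), and the MSR1 call without cow 1 (0.0517) and without the pairing (0.0913). With slide as a fixed block, or within slide 3, the calls of CD68, MSR1 and NKG7 were lost too, with changes of -1.80, -0.84 and -1.49 and of -2.99, -1.68 and -1.58. Of 4 genes of steroid-making cells, CYP11A1 and HSD3B1 did not pass the filter, and STAR, which carries cholesterol into mitochondria, fell by 0.82 (limma adjusted p = 0.0447) and was lower in 9 of 10 cows. The fourth, the steroid hydroxylase CYP17A1, was at 0.08 (adjusted p = 0.50) and higher late in 7 of 10 cows. The STAR call ended without any 1 of 9 cows, without cows 4 and 9 (0.0677), without the filter (0.0626) and with slide as a random block (0.0808), and its sign turned to 0.48 with slide as a further block. None of 8 epithelial or 8 stromal markers passed in limma, with 2 and 4 of them at an unadjusted p under 0.05. Of the epithelial markers 6 had positive and 2 negative changes, from -0.30 to 0.62, and all 8 stromal markers had negative ones. The 2 of smallest p were KRT18 at 0.42 (adjusted p = 0.181) and CLDN3 at 0.62 (0.189) in epithelium, and LUM at -0.50 (0.0803) and PDGFRA at -0.45 (0.0896) in stroma. In the lists of glands (2 of 3 genes tested), endothelium (3 of 4), smooth muscle (4 of 4), fat cells (2 of 4) and cycling cells (2 of 4), 0 genes passed in limma and 0 had an unadjusted p under 0.05. Their genes of smallest p were FOXA2 at 0.32 and PAEP at -0.04, CDH5 at -0.29 and PECAM1 at -0.18, DES at 0.34 and CNN1 at -0.34, PLIN1 at -0.20 and FABP4 at 0.29, and CDK1 at 0.24 and CCNB1 at 0.16 (adjusted p from 0.226 to 0.792). The part of these markers in the values of ABCA1, APOE or ACACA was not tested.

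Of 22 genes tested from a list of 25 around fatty acid synthesis, 0 passed in limma and 4 had an unadjusted p under 0.05, with a median change of -0.11 and 8 positive and 14 negative values. The 2 of smallest p were THRSP, a lipogenic regulator, at 0.70 ± 0.29 (SE, adjusted p = 0.185), and ELOVL7, an elongase of long saturated chains, at 0.91 ± 0.39 (adjusted p = 0.197). Both were higher late in 8 of 10 cows.

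Within a period, the day after calving told little about the members. No member and no gene passed an adjusted p of 0.05 (0% of 19445 genes in either period). At an unadjusted p under 0.05 there were 2 members in the early period, against 5.66% of all genes, and 0 members in the late period, against 1.38%. The 2 were HSD17B7, with a slope of 0.14 ± 0.06 per 10 days (SE, limma adjusted p = 0.864), and ELOVL6, with 0.20 ± 0.09 (adjusted p = 0.879). Both slopes have the sign of the early to late difference of these genes. The same early samples enter slope and difference, so the shared sign is not independent support. In the late period SQLE had the smallest p of the members, with a slope of -0.06 ± 0.03 per 10 days (adjusted p = 1). ACACA had -0.12 ± 0.12 early (adjusted p = 0.955) and 0.02 ± 0.07 late (adjusted p = 1).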

How the data were processed

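Per the labels' protocols, total RNA of endometrium was labelled with Cy3 on 1-colour Agilent arrays. Per the file headers and the submitters' processing notes, the scans were quantified by Agilent Feature Extraction 10.5.1.1. The deposited intensity values are each spot's processed, mean and background signals. The log2 values of the deposited series table were the scanner files' processed signals scaled to the 75th percentile of an array and centred on each probe's median (lowest correlation 0.99995, column medians from -0.15 to 0.05), so its scale and direction are known.

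Here log2 processed signals were scaled in that way, without centring and without control and outlier-flagged spots. A probe entered if well above background on at least 8 of 20 arrays, and the probe of highest mean stood for a gene. Names came from the files and a RefSeq table (ARS-UCD2.0, names only): 20595 of 43653 probes by accession, 10745 by symbol, 1408 by gene number, 376 by synonym, and 10529 kept the array's name. Probe positions are those of the file headers' build.

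The period effect was fitted with limma 3.58.1 (R 4.3.3; two-sided, Benjamini-Hochberg over 19445 genes, threshold 0.05) with cow as a block, and day slopes were fitted per period. Correlations used permutation tests with 100000 resamples (scipy 1.17.1). The pairing comes from titles and animal numbers; the source names of late samples number the cows differently. Deviations of a cow's arrays correlated from -0.11 to 0.76 (median 0.42), against -0.03 between cows. On simulated data of 19237 genes, the late against early test recovered 34% of 50 genes changed by 0.5, 76% by 1, 98% by 2 and 100% by 3, with 8 false calls. The simulated noise was independent between genes and arrays and held no slide effect, so these rates need not hold for the real arrays. Named genes were all members and, of each related or marker list, those past the threshold or else the 2 of smallest p. Outside this rule are EPCAM and VIM, which check the tissue, CYP17A1, added after its value was seen, and the untested ADIPOQ, LEP, CYP11A1 and HSD3B1. Members and lists were chosen with earlier results of these data known. Alternatives were the pairing, background correction, scaling, deposited table, filter, probe choice, slide, leaving out cows and, for slopes, the rank of the day; centring correlations within slide combinations was added after seeing the data.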

Additional observations from a re-analysis of the deposited data

Results flagged for a closer look

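In 62 groups of 10 levels (31 genes in 2 periods), 10 had a highest or lowest sample set apart from the other 9 by a large share of the range. Chance flags about 1 in 20 such groups, and genes of a sample are not independent. The early sample of cow 4 was highest at 3.55 for HMGCS1, 0.49 for ACAT2, 2.0 for SC5DL and 0.13 for ME1, with the next values at 2.32, -1.45, 1.37 and -0.84. The early sample of cow 9 was lowest at -1.12 for MVD, 2.77 for FDFT1 and 1.1 for EBP, with the next values at -0.40, 3.43 and 1.64. The early sample of cow 1 was lowest for MVK at 2.30, that of cow 2 for ACACA at -4.86, and the late sample of cow 6 for DHCR7 at 1.33.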

How the results depend on the processing

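Of the 31 genes, 7 (SREBF1, SREBF2, SCAP, ACACA, FASN, ELOVL5 and ELOVL6) kept their sign under all 23 alternatives run. The share over all genes was not computed. Dropping the pairing, cow as a random block, dropping the filter and fitting each probe gave the members their main value again, so these could not turn a sign. SREBF1 came down to 0.0024 without cow 10 and SCAP to 0.0032 without cows 4 and 9. SCAP, FASN and SREBF2 also had a further probe of opposite sign. ACACA, at -0.77, was the fatty acid gene called (1 of 10) with cow as a random block, normexp correction (-0.47), quantile normalization (-0.70) and median scaling (-0.74). The sterol median of -0.02 ran from -0.11 without cow 9 to 0.0535 without cow 6 on leaving out a cow. It was above 0 with a fixed slide block (0.13), with median scaling (0.0043) and without cow 4, 5, 6 or 10. The fatty acid median of -0.10 moved to 0.58 under a fixed slide block and to 0.26 within slide 3. Over all genes 255 passed, against 119 with no replicate block (no pairing), 718 with cow as a random replicate block, 114 without the filter, 35 with slide as a random block, and 0 in limma with slide as a fixed block (366 at an unadjusted p under 0.05) or within slide 3 (1722). Dropping the pairing ended the calls of ABCA1 (adjusted p = 0.0604) and MSR1 (0.0913) and of no other gene named here. Leaving out 1 cow gave 35 to 152. For the early day slopes the count of 0 was 0 to 1 on leaving out a cow, with the 1 gene called without cow 10.

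Signs turned as follows, and the cause was not tested. Values with slide as a block are far less precise than the main ones, and those within slide 3 compare samples of different cows. A turned sign there does not by itself show a reversal. With slide as a block, values were 0.43 for HMGCS1, 0.68 for ACAT2, 0.52 for MVK, 0.31 for PMVK, 0.011 for FDPS, 0.27 for SQLE, -0.23 for HSD17B7, 0.76 for INSIG1, 0.76 for ACLY, 0.78 for FADS1, 0.39 for ME1, -0.34 for CLDN3, 0.35 for LUM, 0.48 for STAR, -0.26 for FOXA2, 0.10 for PAEP, 0.43 for PECAM1, 0.96 for CNN1, 0.32 for PLIN1, -0.24 for FABP4, -0.57 for CCNB1 and 0.43 for VIM. Within slide 3 they were 0.31 for MVD, -0.0037 for LSS, 0.83 for TM7SF2, 0.24 for NSDHL, 0.078 for INSIG1, 0.42 for ACSS2, -0.58 for THRSP, -0.72 for DES, 0.21 for PLIN1, -0.61 for FABP4, -0.22 for CDK1 and -0.054 for CYP17A1. Quantile normalization gave 0.020 for PAEP. With median scaling they were 0.0043 for MVK, 0.0094 for PMVK, 0.0031 for MVD and 0.010 for IDI1. Averaging the probes of a gene gave -0.089 for FDFT1, -0.040 for SCD and -0.082 for DES. Without cows 4 and 9 they were 0.050 for ACAT2, 0.10 for MVK, -0.10 for FDFT1, -0.018 for EBP, -0.026 for DHCR7, -0.0031 for FADS2, 0.046 for CNN1 and -0.28 for CCNB1. Leaving out 1 cow gave ranges across 0 of -0.24 to 0.020 for ACAT2, -0.072 to 0.048 for MVK, -0.11 to 0.034 for PMVK, -0.083 to 0.063 for MVD, -0.21 to 0.066 for IDI1, -0.076 to 0.14 for FDFT1, -0.054 to 0.10 for LSS, -0.26 to 0.046 for CYP51A1, -0.16 to 0.14 for TM7SF2, -0.058 to 0.10 for SC5DL, -0.0011 to 0.14 for EBP, -0.055 to 0.23 for DHCR7, -0.18 to 0.18 for SCD, -0.0093 to 0.27 for FADS2 and -0.13 to 0.32 for CCNB1. With changes centred within slide combinations, added after seeing the data, r turned to -0.23 for HMGCS1 with FASN and to -0.43 for FASN with ACLY, and moved to 0.26 for FASN with SCD and to -0.047 for FASN with ACACA.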
